A study of Homo sapiens with 6 samples.

Results

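Keratins are the intermediate filament proteins of epithelial cells, and the 55 genes described here are the rows of the expression table whose symbol is KRT followed by a number and at most 1 letter from A to C. They were chosen by name alone out of 26255 gene symbols, without keratin-associated protein genes and without pseudogenes. RNA was sequenced from MDA-MB-231, a human breast cancer cell line, in 2 groups of 3 libraries. The cells of both groups had been infected with lentiviral particles and selected with puromycin. The shNT cells carried a control hairpin RNA, and the cells labelled shGPR81 carried a hairpin against GPR81, the lactate receptor encoded by HCAR1. All libraries came from the same parental line, and the sources do not say which of the study's hairpins against GPR81 the sequenced cells carried or whether the libraries came from separate cultures. The p-values below therefore measure the spread between these libraries, which may be technical.

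A keratin filament is built from pairs of 1 acidic type I chain and 1 basic or neutral type II chain, so that neither type forms a filament alone. The pair KRT8 and KRT18 is the first to appear in development and is typical of simple epithelia, including the luminal cells of the breast, together with KRT7 and KRT19. KRT5, KRT14, KRT15 and KRT17 mark basal cells of stratified and glandular epithelia, KRT6 and KRT16 appear in activated epidermis, KRT1 and KRT10 in its differentiating layers, and KRT31 to KRT40 and KRT81 to KRT86 are hair keratins. The genes of type II lie together on chromosome 12 and those of type I on chromosome 17, with KRT18 as the exception next to KRT8.

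The values are FPKM, fragments scaled to transcript length and to the size of the library, and so a level can be compared between genes. Log2 fold changes are those of log2(FPKM + 0.1), shGPR81 minus shNT, from limma. The fit held the 14349 genes that reached 0.1 FPKM in 3 libraries or more, and p-values were adjusted over all of these by Benjamini-Hochberg. To be called, a gene needed both an adjusted p below 0.05 and a difference of more than 1.5-fold. HCAR1, the targeted gene, was at 0.968, 1.02 and 1.36 FPKM in shNT and at 0.978, 0.891 and 0.396 FPKM in the libraries labelled shGPR81. The groups overlapped (log2 fold change -0.57, limma SE 0.31, adjusted p = 0.38), so the second group is named below by its label. The paper reports lower GPR81 in its knockdown cells by RT-qPCR and western blotting. The relative depths of the 6 libraries, read from the steps of the low FPKM values, were between 1 and 1.071. These steps give 129 HCAR1 reads in shNT and 92 in the libraries labelled shGPR81. The depth-corrected ratio of these reads was 0.677 (95% Clopper-Pearson interval 0.513 to 0.892, counting error only). Without shGPR81 replicate 3 the log2 fold change of HCAR1 was -0.22. The library shNT replicate 1 stood apart from the others in genes of high GC content: the median deviation of the 2765 tested genes at 58.6% GC or more was -0.184 on the log2 scale in this library and between -0.035 and 0.108 in the other 5. The vimentin gene VIM was at 3211 to 4443 FPKM, and the luminal genes CDH1, ESR1 and PGR were listed at 0 in all 6 libraries, while EPCAM was at 5.20 to 6.86 FPKM and the basal marker TP63 at 0.108 to 0.409 FPKM. The summed level of 8 mesenchymal markers was 3615 to 4377 FPKM in shNT and 4343 to 4859 FPKM in the libraries labelled shGPR81, a sum carried by VIM. FN1, at 59.8 to 62.4 FPKM and 49.0 to 51.2 FPKM, and CD44, at 173 to 180.3 FPKM and 149 to 158 FPKM, lay lower in the libraries labelled shGPR81 without overlap, and both are named after their values were seen. SPARC and CDH2, at 0.126 FPKM or less, also lay lower without overlap, while VIM lay higher. Over all tested genes, 12.7% lay lower without overlap and 12.9% higher. The summed level of 11 luminal markers was 50.0 to 60.8 FPKM in shNT and 54.4 to 58.1 FPKM in the libraries labelled shGPR81. Of these 11, 6 had a mean of 1 FPKM or more, among them CLDN4 at 28.3 to 36.5 FPKM and ERBB2 at 10.6 to 12.6 FPKM. GATA3, at 1.114 to 1.335 FPKM in shNT and 1.341 to 1.390 FPKM in the libraries labelled shGPR81, lay higher without overlap. So did ESRP1, at 0.0653 to 0.0870 FPKM and 0.0955 to 0.183 FPKM. Both are named after their values were seen. Of 7 basal and myoepithelial markers, 3 had such a mean, among them EGFR at 33.6 to 39.4 FPKM and MYLK at 7.26 to 8.29 FPKM. The fibroblast markers DCN, LUM and COL1A2 and the leukocyte marker CD3E were also listed at 0 throughout. Other members of these lists were not. The fibroblast marker COL1A1 was at 0.940 to 1.18 FPKM in shNT and at 0.503 to 0.719 FPKM in the libraries labelled shGPR81. The leukocyte marker CD14 was at 2.24 to 4.29 FPKM and at 1.14 to 1.74 FPKM. Neither overlapped between the groups, where 12.7% of all tested genes lay lower without overlap, and both are named after their values were seen.

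MDA-MB-231 cells expressed a small and uneven part of the keratin family. Of the 55 genes, 12 passed the filter, 6 were above 0 in at least 1 library without passing it, and 37 were listed at 0 in all 6 libraries. The simple epithelial pair and the hair keratin KRT81 led, and KRT18, KRT81, KRT8 and KRT19 made up 86.7% to 88.0% of the summed keratin FPKM of each library. By mean level over the 6 libraries the order was KRT18, KRT81, KRT8, KRT19, KRT80, KRT10, KRT86, KRT7, KRT15, KRT83, KRT34 and KRT32. From KRT8 down to KRT7, the range of each gene over the 6 libraries lay wholly above that of the next. The ranges of KRT18, KRT81 and KRT8 overlapped, and so did those of neighbours from KRT7 down to KRT32. KRT18 was above KRT81 in all 6 libraries, whereas KRT81 was above KRT8 in 3 of 6, which were the 3 of shNT.

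**Figure D1:**
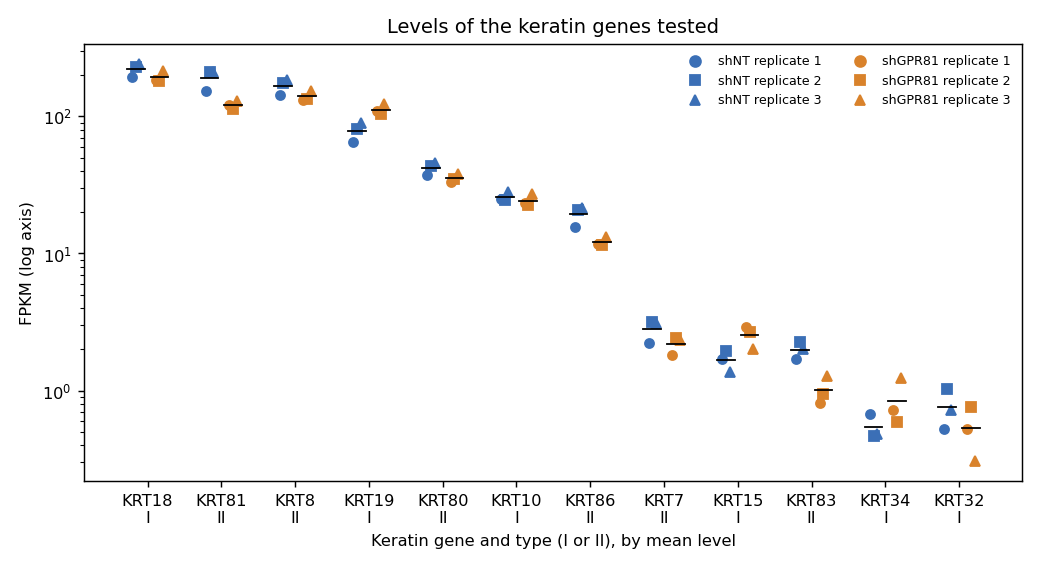
FPKM of the 12 keratin genes that passed the filter, on a log axis, in order of mean level, with the keratin type (I or II) under each symbol. Points are single libraries (blue shNT, orange labelled shGPR81) and black lines the group means; KRT81, KRT86 and KRT83 are lower and KRT19 and KRT15 higher in all 3 libraries labelled shGPR81 than in any of shNT.

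Basal keratins were almost missing. KRT5 and KRT17 were listed at 0 in all 6 libraries and KRT14 at 0.0507 FPKM in shNT replicate 3 and at 0 in the others, so KRT15 was the 1 basal keratin tested. Of the activation keratins, KRT6A, KRT6B and KRT6C were listed at 0, and KRT16 was at 0.0454 FPKM in shGPR81 replicate 3 alone. The 13 keratins of stratified, differentiating epithelia were listed at 0 in 11 cases, among them KRT1, the usual partner of KRT10 in epidermis. KRT10 itself was at 22.6 to 28.3 FPKM. All 9 keratins of the inner root sheath and companion layer of the hair and 11 of the 17 hair keratins were listed at 0. A value listed at 0 need not mean that the transcript was absent. Of 8 keratin pseudogenes, 3 were above 0 in any library, at up to 0.0545 FPKM (KRT42P). KRT17P5, a pseudogene related to KRT17, was above 0 in 5 of 6 libraries.

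Of the 12 tested keratins, 3 were called lower in the libraries labelled shGPR81 and 0 were called higher. Of all tested genes, 1.59% were called lower, 0.955% higher and 2.54% in either direction. The number called lower fell from 3 to 0 when no filter was used and under limma's treat, and to 0 or 1 without any one library other than shNT replicate 1. At an unadjusted p under 0.05 in limma, 5 keratins were lower and 2 higher, where 9.43% of all tested genes were lower and 10.1% higher. The 3 genes called are the type II hair keratins KRT81, KRT86 and KRT83. Without the fold change threshold, KRT19 joined them with an adjusted p under 0.05 and a rise, which makes 4 of 12 keratins, where 5.13% of all tested genes had such an adjusted p. Over the 12 tested keratins the log2 fold changes had a median of -0.25, against 0.0081 over all tested genes. In these bulk libraries, fewer cells that express a gene and less of its RNA per cell cannot be told apart.

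**Figure D2:**
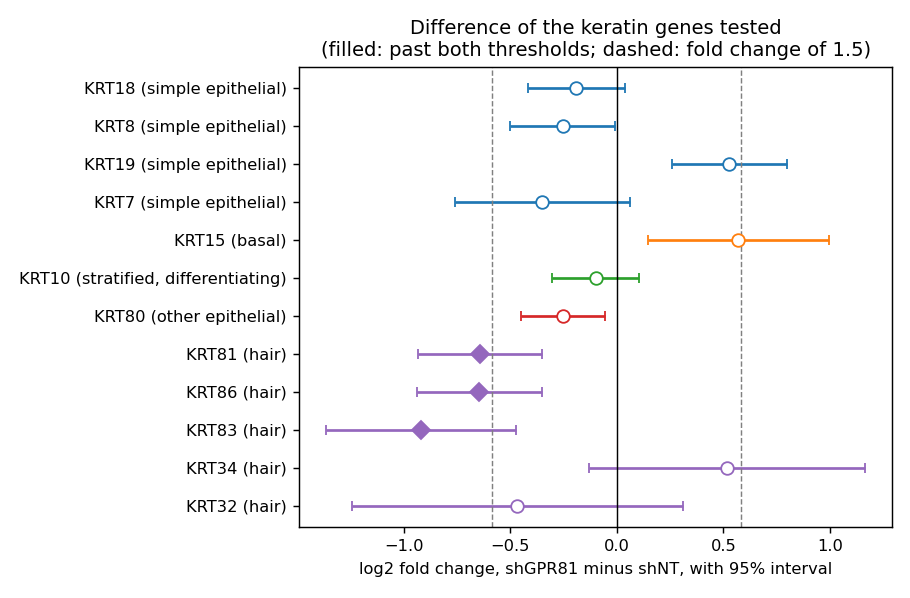
Log2 fold change (libraries labelled shGPR81 minus shNT) of the 12 tested keratins with its 95% interval from limma, grouped and coloured by class. Filled diamonds (KRT81, KRT86 and KRT83) passed both thresholds, open circles did not, and dashed lines mark a fold change of 1.5.

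KRT81, a type II keratin of the hair cortex, was the hair keratin with the highest level. It was at 153, 209 and 211 FPKM in shNT and at 121, 114 and 129 FPKM in the libraries labelled shGPR81. All 3 of the latter were below every shNT library, and shNT replicate 1 lay nearest to them. The means were 191 ± 32.7 and 121 ± 7.70 FPKM (SD, n = 3), a log2 fold change of -0.64 (limma, SE 0.12, adjusted p = 0.0285, 95% interval -0.93 to -0.35). The exact permutation test (two-sided) cannot go below p = 0.1 with 3 against 3 libraries, and KRT81 reached that value.

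KRT86, also a type II hair keratin, was at 15.7, 20.8 and 21.5 FPKM in shNT and at 11.7, 11.6 and 13.3 FPKM in the libraries labelled shGPR81. The groups did not overlap, and the order of the libraries within each group was that of KRT81. Its log2 fold change was -0.65 (limma, SE 0.13, adjusted p = 0.0295). The ratio of KRT86 to KRT81 was 0.102, 0.0992 and 0.102 in shNT and 0.0967, 0.102 and 0.103 in the libraries labelled shGPR81, so that KRT86 moved with KRT81 and gives little beyond it.

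KRT83, the third of these type II hair keratins, was at 1.70, 2.25 and 1.998 FPKM in shNT and at 0.812, 0.946 and 1.27 FPKM in the libraries labelled shGPR81. No library labelled shGPR81 reached the lowest shNT value. The means were 1.98 ± 0.277 and 1.01 ± 0.238 FPKM (SD, n = 3), and the log2 fold change was -0.92 (limma, SE 0.19, adjusted p = 0.0369). The FPKM steps give 39, 53 and 46 reads in shNT and 20, 23 and 31 reads in the libraries labelled shGPR81. The ratio of reads corrected for depth was 0.509 (95% Clopper-Pearson interval 0.379 to 0.680, counting error only). Over single libraries its ratio to KRT81 varied from 0.00670 to 0.0111, and the groups overlapped in this ratio.

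These 3 genes are neighbours and near copies of each other, and their sequences bear on how far their values are separate measurements. In GRCh37, with GENCODE annotation, KRT86 lies on chromosome 12 from 52643084 to 52702947 on the plus strand, KRT81 from 52679697 to 52685318 on the minus strand inside the KRT86 locus, and KRT83 from 52708085 to 52715182 on the minus strand. Their coding sequences are 93.3% identical between KRT81 and KRT86, 93.2% between KRT81 and KRT83 and 91.0% between KRT86 and KRT83 over the aligned bases. At the read length of 75 bases, 33.0% of the stretches of the KRT81 transcript also occur in transcripts of KRT86, while 1.1% occur in those of KRT83. Of 1801 such stretches in KRT83, 21 occur in KRT81 and 3 in KRT86. The following window of 75 coding bases, among those identical in KRT81 and KRT86 the one with most differences in KRT83, is shown because a read from it cannot tell KRT81 from KRT86. Capitals mark bases that differ from KRT81.
KRT81: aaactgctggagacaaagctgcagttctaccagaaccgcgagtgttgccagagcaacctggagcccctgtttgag
KRT86: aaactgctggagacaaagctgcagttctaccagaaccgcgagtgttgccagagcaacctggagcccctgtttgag
KRT83: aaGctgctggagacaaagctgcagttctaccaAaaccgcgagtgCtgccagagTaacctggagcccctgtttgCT

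The window lies in exon 2 of KRT81 (chr12:52683972-52684046, minus strand), in exon 4 of KRT86 (chr12:52696908-52696982, plus strand) and in exon 2 of KRT83 (chr12:52713050-52713124, minus strand), and KRT83 differs from KRT81 at 6 of its 75 bases. In all, 710 windows lie in 1 exon of all 3 genes and align without a gap. Of these, 427 are identical in KRT81 and KRT86, and 21 in KRT81 and KRT83. Among the 710 windows, the next one has the most differences between KRT81 and KRT86, 5 of 75 bases. It lies in exon 5 of KRT81 (chr12:52681795-52681869, minus strand), exon 7 of KRT86 (chr12:52699087-52699161, plus strand) and exon 5 of KRT83 (chr12:52710670-52710744, minus strand).
KRT81: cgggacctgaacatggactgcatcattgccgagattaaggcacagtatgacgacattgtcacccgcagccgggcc
KRT86: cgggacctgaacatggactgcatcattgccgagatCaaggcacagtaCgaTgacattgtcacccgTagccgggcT
KRT83: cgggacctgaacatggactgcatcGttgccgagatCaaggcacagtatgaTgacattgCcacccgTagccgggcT

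The share of reads that the authors' processing split between KRT81 and KRT86 was not tested, so the level of KRT86 is uncertain. KRT83 was at only 0.00670 to 0.0111 of the level of KRT81, and 21 of its 1801 stretches occur in KRT81. Whether reads of KRT81 were counted for KRT83 was not tested, so the level and reads of KRT83 are uncertain too. The 3 calls are not 3 independent results. All 3 transcripts are GC-rich, at 62.3% for KRT81, 62.7% for KRT86 and 61.5% for KRT83, and shNT replicate 1, which was low in such genes, was the lowest shNT library for each of them. Without that library the log2 fold changes were -0.79, -0.79 and -1.02. The calls depended on the other libraries. KRT81 and KRT86 lost them without any one of shNT replicate 2, shNT replicate 3 or the 3 libraries labelled shGPR81, and KRT83 without any of these except shGPR81 replicate 3. In the fits that lost a call, adjusted p reached 0.143 and the log2 fold changes were -0.91 to -0.56 (limma).

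**Figure D3:**
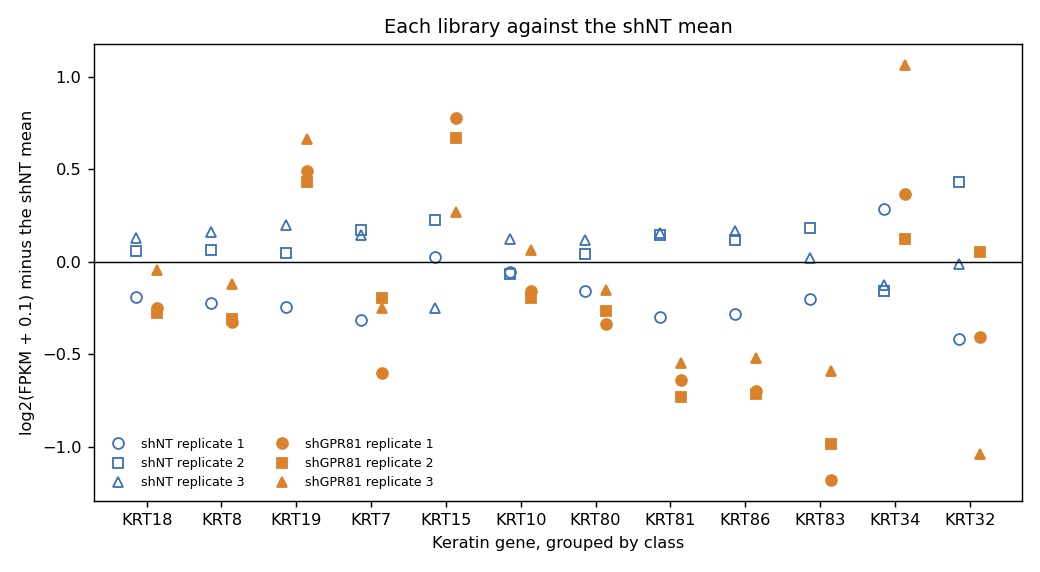
Log2(FPKM + 0.1) of each library minus the mean of the 3 shNT libraries for the 12 tested keratins, grouped by class from simple epithelial (left) to hair (right). Open blue symbols are shNT and filled orange symbols the libraries labelled shGPR81; shNT replicate 1 (open circle) lies at the lower end of shNT in KRT18, KRT8, KRT19, KRT7, KRT80, KRT81, KRT86, KRT83 and KRT32.

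The type I hair keratins were low and did not pass the test. KRT34 was at 0.674, 0.470 and 0.481 FPKM in shNT and at 0.720, 0.592 and 1.23 FPKM in the libraries labelled shGPR81, which stand for 14, 10 and 10 reads and for 16, 13 and 27 reads. The groups overlapped, and shGPR81 replicate 3 alone was high (log2 fold change 0.52, 95% interval -0.13 to 1.17, adjusted p = 0.373 from limma). KRT32 was at 0.524, 1.02 and 0.725 FPKM and at 0.527, 0.763 and 0.305 FPKM, with 13, 26 and 18 reads and 14, 20 and 8 reads (log2 fold change -0.47, 95% interval -1.24 to 0.31). KRT85, a further type II hair keratin below the filter, had 5 reads in shNT and 2 in the libraries labelled shGPR81. The depth-corrected ratio of reads was 1.56 for KRT34 (95% Clopper-Pearson interval 1.004 to 2.47) and 0.700 for KRT32 (0.458 to 1.06). These intervals hold counting error only and leave out the spread between libraries. In KRT32 and KRT34 the difference did not exceed the spread between libraries, and the reads of KRT85 are too few to show one.

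Among the simple keratins, KRT19 stood against the others. KRT19, the smallest type I keratin and a widely used epithelial marker, was at 65.4, 80.1 and 88.8 FPKM in shNT and at 109, 105 and 123 FPKM in the libraries labelled shGPR81. Every library labelled shGPR81 was above every shNT library. The means were 78.1 ± 11.8 and 112 ± 9.60 FPKM (SD, n = 3), which is 1.43 times as high, with a log2 fold change of 0.53 (limma, SE 0.12, adjusted p = 0.045, 95% interval 0.26 to 0.80). The rise passed the threshold on adjusted p and not that on the fold change. Without shNT replicate 3 it passed both (log2 fold change 0.63), and the adjusted p was above 0.05 without shNT replicate 2 or any library labelled shGPR81, at up to 0.145. KRT19 is GC-rich too, at 59.9%, and without shNT replicate 1 its log2 fold change was 0.41 (adjusted p = 0.0303).

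KRT8 and KRT18, partners in 1 filament, did not pass the test. KRT18 was at 193, 229 and 241 FPKM in shNT and at 185, 182 and 214 FPKM in the libraries labelled shGPR81 (log2 fold change -0.19, 95% interval -0.42 to 0.04, adjusted p = 0.353 from limma). KRT8 was at 142, 173 and 185 FPKM and at 132, 134 and 153 FPKM (log2 fold change -0.25, 95% interval -0.50 to -0.01, adjusted p = 0.246 from limma). The groups overlapped in both genes, through shNT replicate 1 and shGPR81 replicate 3. The level of KRT8 per KRT18 was nearly fixed, at 0.735, 0.756 and 0.769 in shNT and at 0.714, 0.735 and 0.713 in the libraries labelled shGPR81. The annotated loci of the pair overlap by 1084 bases on opposite strands, and the sources used here do not say whether the counting used strand.

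KRT7, a type II keratin of simple and glandular epithelia, was at 2.23, 3.17 and 3.10 FPKM in shNT and at 1.81, 2.43 and 2.34 FPKM in the libraries labelled shGPR81. These values stand for 46, 67 and 64 reads and for 40, 53 and 51 reads, and the groups overlapped (log2 fold change -0.35, 95% interval -0.76 to 0.06, adjusted p = 0.338 from limma). The depth-corrected ratio of reads was 0.773 (95% Clopper-Pearson interval 0.616 to 0.968, counting error only). The annotated loci of KRT7 and KRT86 overlap by 2887 bases on the plus strand. Whether reads were shared between KRT7 and KRT86 was not tested. KRT20, the simple keratin of gut and Merkel cells, was at 0.0453 FPKM in shNT replicate 3 and at 0.0424 FPKM in shGPR81 replicate 1 and was listed at 0 in the others.

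KRT15, the basal type I keratin, was at 1.69, 1.95 and 1.38 FPKM in shNT and at 2.90, 2.69 and 2.01 FPKM in the libraries labelled shGPR81. The groups did not overlap, although shGPR81 replicate 3 lay close to shNT replicate 2. The log2 fold change was 0.57 (SE 0.18, 95% interval 0.15 to 0.99), and KRT15 did not pass the test (adjusted p = 0.136 from limma). The FPKM steps give 38, 45 and 31 reads and 70, 64 and 48 reads, a depth-corrected ratio of 1.52 (95% Clopper-Pearson interval 1.19 to 1.93, counting error only). KRT15 and KRT19 are neighbours on chromosome 17 (39669997 to 39678781 and 39679869 to 39684560 of GRCh37, both on the minus strand). They were the 2 keratins whose libraries labelled shGPR81 all lay above shNT, as did 12.9% of all tested genes, and the 3 hair keratins were those that all lay below, as did 12.7%.

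KRT80 and KRT10 completed the tested keratins. KRT80, a type II keratin of several epithelia, was at 37.5, 43.2 and 45.5 FPKM in shNT and at 33.1, 34.9 and 37.6 FPKM in the libraries labelled shGPR81, with an overlap only between shNT replicate 1 and shGPR81 replicate 3. Its log2 fold change was -0.25 (95% interval -0.45 to -0.06, adjusted p = 0.152 from limma). KRT10, a type I keratin of differentiating epidermis, was at 25.0, 24.7 and 28.3 FPKM and at 23.2, 22.6 and 27.1 FPKM. Its log2 fold change of -0.10 had a 95% interval from -0.30 to 0.11.

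By type, the signs were uniform in type II and mixed in type I. All 6 of type II had a negative log2 fold change, with a median of -0.50, and 3 were called lower (limma; 5 lower and 0 higher at an unadjusted p under 0.05). The 3 of them that were called are the near copies KRT81, KRT86 and KRT83, so the 6 signs are not 6 separate results. Of the 6 of type I, 3 were negative and 3 positive, with a median of 0.21, and 0 were called (limma; 0 lower and 2 higher at an unadjusted p under 0.05). Over all tested genes, 1.59% were called lower and 0.955% higher, and 9.43% were lower and 10.1% higher at the unadjusted p. Summed over all members, type II keratins were at 353, 452 and 468 FPKM in shNT and at 301, 297 and 336 FPKM in the libraries labelled shGPR81. Type I keratins were at 287, 338 and 361 FPKM and at 321, 313 and 367 FPKM, with overlapping groups. The type II per type I ratio within a library was 1.23, 1.34 and 1.30 in shNT and 0.936, 0.950 and 0.915 in the libraries labelled shGPR81. In shNT the type II transcripts were the more abundant, and in the other group the type I transcripts were. No test was made of these sums, in which KRT18 and KRT19 had the highest mean levels of type I and KRT81 and KRT8 the highest of type II. The sums and their ratio contain the fall of KRT81 and the rise of KRT19 given above and are not separate results.

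Some ratios between keratins of the same library were tight, while KRT19 per KRT15 was not, at 48.1 ± 14.3 in shNT and 45.8 ± 13.2 in the libraries labelled shGPR81 (SD, n = 3). KRT19 per KRT18 was 0.339, 0.349 and 0.368 in shNT and 0.587, 0.575 and 0.575 in the libraries labelled shGPR81. KRT81 per KRT8 was 1.08, 1.21 and 1.14 in shNT and 0.915, 0.852 and 0.847 in the libraries labelled shGPR81. As a share of summed keratin FPKM, KRT19 was at 10.1% to 10.7% in shNT and at 17.1% to 17.5% in the libraries labelled shGPR81, and KRT81 at 24.0% to 26.5% and at 18.4% to 19.5%. KRT18 kept a share of 29.0% to 30.4% over all 6 libraries. The summed level of all keratins overlapped between the groups, at 639, 790 and 829 FPKM in shNT and at 622, 610 and 704 FPKM in the libraries labelled shGPR81.

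**Figure D4:**
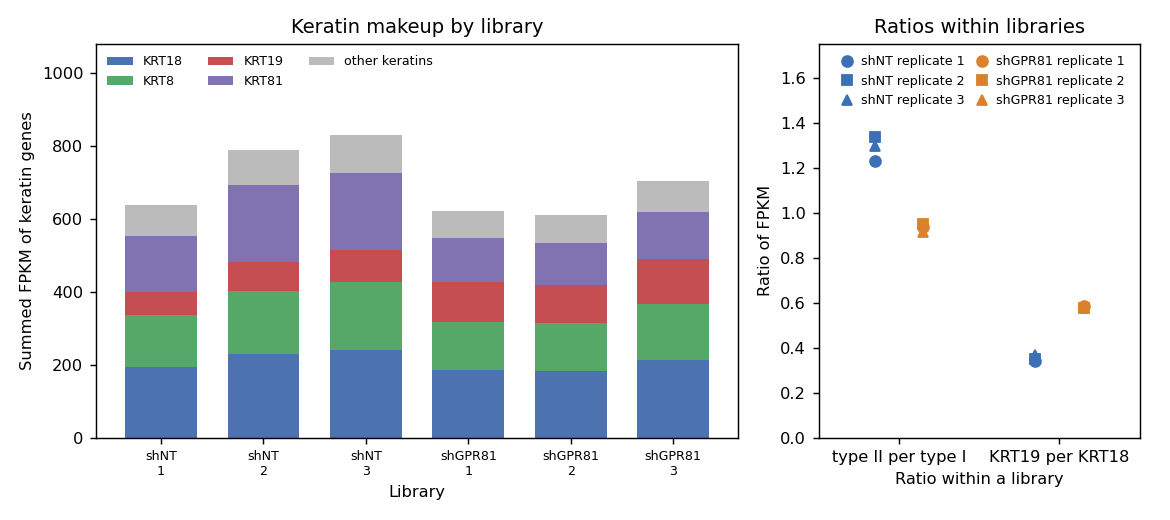
Left, summed FPKM of the keratin genes in each library, stacked by KRT18, KRT8, KRT19, KRT81 and all others. Right, 2 ratios of FPKM within each library: type II per type I lies between 1.23 and 1.34 in shNT and between 0.915 and 0.950 in the libraries labelled shGPR81, and KRT19 per KRT18 between 0.339 and 0.368 and between 0.575 and 0.587.

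Keratin filaments are anchored by plakins to desmosomes between cells and to hemidesmosomes at the basement membrane, and share the cytoplasm of these cells with vimentin. For the lists that follow, the shares over all tested genes were 1.59% called lower and 0.955% called higher. At an unadjusted p under 0.05 in limma these shares were 9.43% lower and 10.1% higher. Of 15 genes of other intermediate filaments, 7 were tested and 0 called (limma; 1 lower and 0 higher at an unadjusted p under 0.05). VIM was at 3211, 3506 and 3937 FPKM in shNT and at 3960, 4001 and 4443 FPKM in the libraries labelled shGPR81, above shNT in each library and without passing the test (log2 fold change 0.22, limma SE 0.10, adjusted p = 0.267). VIM was 4.44 to 5.02 times the summed keratin level in shNT and 6.31 to 6.56 times in the libraries labelled shGPR81. LMNA, which encodes lamins of the nuclear envelope, had a log2 fold change of 0.24 (adjusted p = 0.322 from limma).

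The linkers showed few differences. Of 11 plakins and linkers, 7 were tested and 0 called (limma; 1 lower and 0 higher at an unadjusted p under 0.05), with log2 fold changes of 0.04 for PLEC, whose product plectin ties filaments to hemidesmosomes, and 0.05 for DSP, whose product desmoplakin ties them to desmosomes. Of 13 desmosome genes, 7 were tested and 0 called (limma; 2 lower and 2 higher at an unadjusted p under 0.05). JUP, which encodes plakoglobin, was at 6.51, 9.31 and 9.53 FPKM in shNT and at 5.52, 5.35 and 6.07 FPKM in the libraries labelled shGPR81 (log2 fold change -0.55, limma SE 0.15, adjusted p = 0.0872). JUP was called lower without shNT replicate 1 (adjusted p = 0.00401). In the other fits that left out 1 library, its adjusted p was 0.164 to 0.258 (limma).

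All 7 hemidesmosome genes were tested, 1 was called lower and 0 higher (limma; 1 lower and 4 higher at an unadjusted p under 0.05). The shares over all tested genes were 1.59% and 0.955% for the calls and 9.43% and 10.1% at the unadjusted p. ITGB4, the integrin chain that binds plectin and so links keratins to the basement membrane, was at 6.13, 8.47 and 8.65 FPKM in shNT and at 4.04, 4.17 and 4.28 FPKM in the libraries labelled shGPR81. The groups lay apart (log2 fold change -0.86, limma SE 0.14, adjusted p = 0.0131). The call was lost when replicate 2 of shNT or replicate 1 or 2 of the libraries labelled shGPR81 was left out, at an adjusted p of 0.0636 to 0.0703. Its partner ITGA6 went the other way, from 162, 145 and 148 FPKM to 177, 186 and 180 FPKM, a rise of 0.26 on the log2 scale (limma, SE 0.06, adjusted p = 0.0483) that stayed under the fold change threshold. The adjusted p of ITGA6 was above 0.05 with no filter (0.0658), a pseudocount of 0.01 (0.051), median centring (0.0541), quantile normalization (0.148), the replicate block (0.0805) and in each fit that left out a library other than shNT replicate 1, at up to 0.191. LAMB3, a chain of laminin-332 named here after its values were seen, also had an adjusted p under 0.05 below that threshold, with a log2 fold change of 0.50 (limma, SE 0.09, adjusted p = 0.0183, and up to 0.0756 when 1 library was left out).

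**Figure D5:**
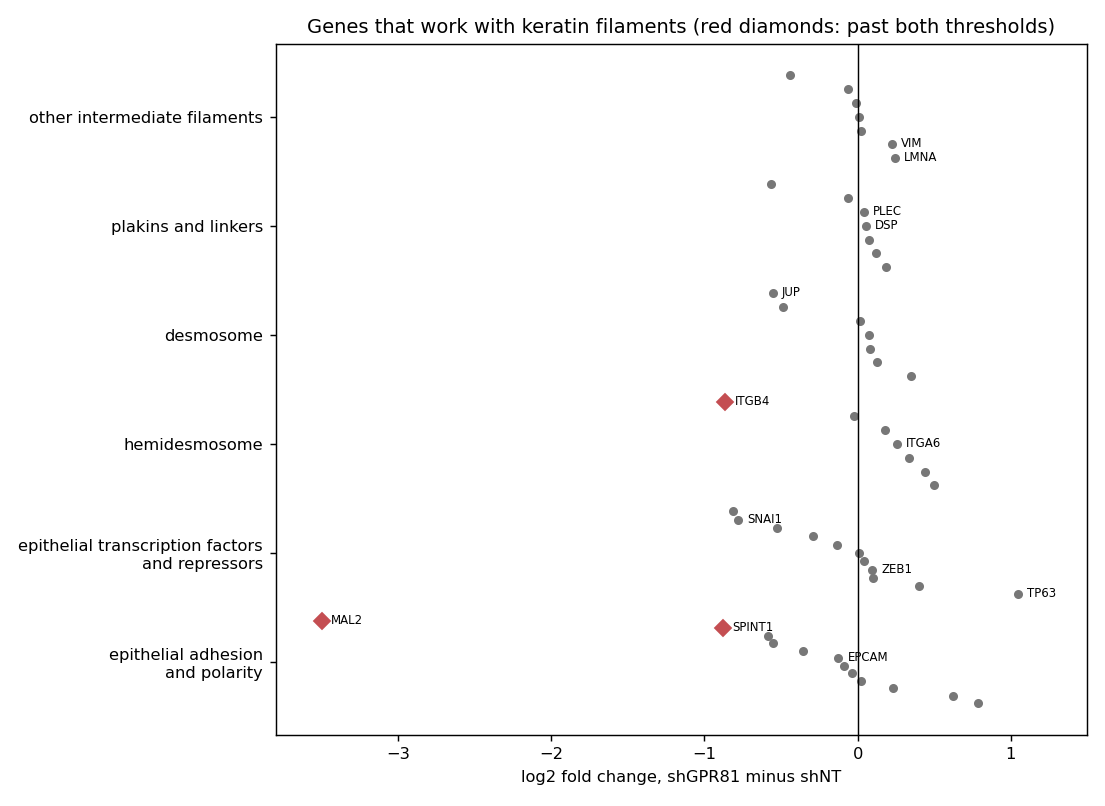
Log2 fold change (libraries labelled shGPR81 minus shNT) of the tested genes in 6 lists that go with keratin filaments, 1 point per gene, sorted within each list. Red diamonds (ITGB4, MAL2 and SPINT1) passed both thresholds and grey circles did not.

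Of 18 epithelial transcription factors and their repressors, 11 were tested and 0 called (limma; 3 lower and 2 higher at an unadjusted p under 0.05). TP63, the master regulator of basal keratinocytes, was at 0.108, 0.116 and 0.108 FPKM in shNT and at 0.323, 0.409 and 0.282 FPKM in the libraries labelled shGPR81 (log2 fold change 1.05, limma SE 0.24, adjusted p = 0.0575). TP63 was called higher with no filter (adjusted p = 0.0291), with quantile normalization (0.0473) and after the GC correction (0.0391), and its adjusted p was 0.104 with the replicate block. Its log2 fold change was 0.27 at a pseudocount of 1, and its shNT values lay close to the filter of 0.1 FPKM. In the fits that left out 1 library, the adjusted p of TP63 was 0.0830 to 0.206 (limma). SNAI1, a repressor of epithelial genes, was at 3.48, 4.72 and 5.51 FPKM and at 2.12, 2.84 and 2.84 FPKM (log2 fold change -0.78, limma SE 0.19, adjusted p = 0.0646). SNAI1 was called lower with the replicate block (adjusted p = 0.0182), without shNT replicate 1 (0.0157) and after the GC correction (0.0159). In the other fits that left out 1 library its adjusted p was 0.126 to 0.211, and with no filter it was 0.112 (limma). ZEB1, another repressor, was at 16.8 to 19.03 FPKM with overlapping groups. TFAP2C, an activator of mammary epithelial genes named after its values were seen, had a log2 fold change of -0.53 (limma, SE 0.10, adjusted p = 0.0279, and up to 0.110 when 1 library was left out), below the fold change threshold.

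Of 16 genes of epithelial adhesion and polarity, 12 were tested, 2 were called lower and 0 higher (limma; 2 lower and 1 higher at an unadjusted p under 0.05). Over all tested genes, 1.59% were called lower and 0.955% higher. MAL2, a membrane protein of apical transport, was at 1.25, 1.19 and 1.22 FPKM in shNT and at 0.0259, 0 and 0.0262 FPKM in the libraries labelled shGPR81 (log2 fold change -3.50, limma SE 0.22, adjusted p = 0.00051). The size of this fall depended on the pseudocount, with -1.13 at a pseudocount of 1 and -5.71 at 0.01. SPINT1, which encodes an inhibitor of the epithelial protease matriptase, was at 3.64, 5.04 and 4.84 FPKM and at 2.45, 2.76 and 2.01 FPKM (log2 fold change -0.88, limma SE 0.16, adjusted p = 0.0255). SPINT1 kept its call in 1 of the 6 fits that left out a library, that without shNT replicate 1. EPCAM overlapped between the groups, at 6.43, 5.20 and 6.86 FPKM and at 5.60, 5.72 and 5.49 FPKM. Of the 7 basal and myoepithelial marker genes other than keratins, ACTA2, smooth muscle actin, was called higher, with a log2 fold change of 1.09 (limma, SE 0.17, adjusted p = 0.0124), and it is named after its values were seen. The summed level of these markers overlapped between the groups, at 45.2 to 49.8 FPKM in shNT and at 46.7 to 50.4 FPKM in the libraries labelled shGPR81.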

How the data were processed

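RNA was sequenced from 3 shNT libraries and 3 libraries labelled shGPR81 of MDA-MB-231 cells. The authors prepared TruSeq stranded mRNA libraries and read them as single-end reads of 75 bases. The methods give human hg19 as the reference for mapping, while the series description names a mouse genome. The human build was used here, since the cells and symbols are human. The submitters' processing notes list TopHat2 2.0.13, Bowtie2 2.2.3, SAMtools 0.1.19 and Cuffnorm 2.2.1. The deposited FPKM hold 1 value per symbol and library. The annotation and any strand setting are not given in the sources used here.

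Differences were tested in limma 3.58.1 under R 4.3.3 (lmFit, eBayes with trend) on log2(FPKM + 0.1), without a block. Total read numbers are not given. Where the 6 values of a gene were whole multiples of 1 step within a relative tolerance of 1e-04, the multiples were taken as reads. This resolved 4466 of 15931 genes, and the smallest such multiples are given. Coordinates and transcripts were taken from GENCODE release 44 on GRCh37. No protein or promoter sequence was used here.

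The members, lists and tests were chosen with earlier results of these data known, so they give no independent support. The text names every keratin that passed the filter, called genes of the other lists and 12 defining genes of those lists. Whether the same replicate number pairs libraries is not stated in the sources used here. The alternatives were other filters, pseudocounts and scalings, a replicate block, limma's treat, leaving out each library, and a GC correction added after the data were seen.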

Additional observations from a re-analysis of the deposited data

How the results depend on the processing

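All 12 keratins kept the sign of their log2 fold change under every alternative in which they were tested. The filters, the replicate block and treat return the log2 fold change of the main fit, so the sign could not change there. Of the 178 gene values so obtained, 156 stayed on the same side of the call, most of them from keratins that were never called. KRT81, KRT83 and KRT86 each kept their call in 8 of 15 alternatives. The number of keratins called lower, 3, became 0 with no filter, where 17799 genes share the adjustment, and 0 under treat, limma's test of whether a difference exceeds the fold threshold. Leaving out 1 library gave 0 to 3 keratins called lower and 0 to 1 called higher, the latter KRT19 without shNT replicate 3. A pseudocount of 1 left 2 called lower and took KRT83 below the fold change threshold, at -0.57. KRT19 had an adjusted p of 0.0834 with no filter and 0.0523 with median centring (limma). The median log2 fold change of the tested keratins, -0.25, stayed between -0.35 and -0.18. After the GC correction, added after the data were seen, the same 3 keratins were called and KRT19 had an adjusted p of 0.0016 (limma) at a log2 fold change of 0.51, and KRT8 and KRT80 had adjusted p of 0.0302 and 0.0138 below the fold change threshold. Libraries with the same replicate number deviated together with correlations of 0.12, 0.022 and 0.006 across genes. These values are low and do not settle whether the number pairs the libraries. With the number as a replicate block, 3 keratins were called lower and 0 higher. Depth limits the low keratins, those below the filter included.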
